A study of Mus musculus with 2 samples.

Results

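The genes described here encode the proteins of the mitochondrial ribosome. They were taken by symbol, as every row of the deposited table whose gene name is Mrpl or Mrps followed by a number and at most 1 letter, a rule that uses no expression value. The rule found 78 genes among the 55337 gene symbols of the table, each with a single row. RNA-seq was done on KPC2 cells, a mouse pancreatic cancer line, as 1 library of gemcitabine resistant cells and 1 library of wild type cells. Gemcitabine is a deoxycytidine analogue given against pancreatic cancer; the resistant cells were under long-term exposure to it at 260 ng/mL, and the wild type cells were untreated. Both were grown in the same serum-supplemented medium, and the labels do not say whether the resistant cells are 1 clone. With no replicates, each difference below describes these 2 libraries and carries no test between conditions, and effects of the drug being present and of resistance itself cannot be told apart.

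The mitochondrial ribosome makes the few hydrophobic proteins that mitochondrial DNA encodes, all of them core parts of the respiratory chain and ATP synthase. Its rRNAs come from mitochondrial DNA, whereas all of its proteins come from nuclear genes, are made in the cytosol and are imported. Compared with its bacterial ancestor it has less rRNA and more protein, so that some of its proteins have bacterial homologues and others are particular to mitochondria. Many of these nuclear genes are expressed in most tissues from GC-rich promoters, often back to back with another gene.

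The deposited values were read as FPKM, a level corrected for transcript length and for the fragments of the library. The library sums were 1197280 FPKM in the resistant library and 998508 FPKM in the wild type library. Genes with 1 FPKM or more in either library are called measured; they numbered 12193 and included all 78 members. Differences are given as the log2 ratio of resistant over wild type after adding 1 FPKM to each value. This understates differences, slightly at the members' levels and more for genes with values near or below 1 FPKM. The ratios are of the values as deposited unless a scaling is named. Low values fell on steps of whole fragments, from which the members' approximate fragment numbers were read. They had a median of 634 fragments in the resistant and 560 in the wild type library, and the lowest numbers were 66.8 fragments in the resistant and 102 in the wild type library. The 95% intervals below come from these fragments and cover counting error only. Of the epithelial markers, Krt8, Krt18, Krt19, Krt7 and Cdh1 were measured, and Epcam was not. None of the 7 fibroblast, 4 endothelial or 7 acinar and islet markers was measured. Of the 7 leukocyte markers Cd68 (5.48 FPKM in the resistant and 1.17 FPKM in the wild type library) and Lyz2 (1.53 FPKM in the resistant and 0.361 FPKM in the wild type library) were measured, and the whole list summed to 7.24 FPKM in the resistant and 1.60 FPKM in the wild type library. Their part in the results was not tested.

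Promoters of members are shown here because a part of the results turns on which members share a promoter and which carry a binding motif of a known regulator of mitochondrial genes. The sequences are RefSeq's, on GRCm38.p6, written 5′ to 3′ on the strand of the first named gene. Capitals mark a motif match on either strand, and letters without capitals held none of the motifs searched. The first 3 are the bases between the RefSeq start sites of a member and of the gene transcribed away from it, and the last 3 are the 150 bases before the start site of members with motifs.
Mrpl30–Mitd1 (chr1:37890412-37890476, + strand): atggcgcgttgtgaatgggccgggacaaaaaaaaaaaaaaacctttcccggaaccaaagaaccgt
Mrpl46–Mrps11 (chr7:78783090-78783130, - strand): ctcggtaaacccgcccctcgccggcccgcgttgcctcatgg
Mrps12–Sars2 (chr7:28741822-28741967, - strand): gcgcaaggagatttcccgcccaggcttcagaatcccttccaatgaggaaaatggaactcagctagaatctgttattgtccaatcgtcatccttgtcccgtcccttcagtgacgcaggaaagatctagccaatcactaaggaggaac
Mrpl45 (chr11:97315566-97315715, + strand): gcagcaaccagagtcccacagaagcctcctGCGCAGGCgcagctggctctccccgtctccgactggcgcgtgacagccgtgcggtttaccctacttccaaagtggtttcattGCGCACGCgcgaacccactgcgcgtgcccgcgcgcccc
Mrpl22 (chr11:58171514-58171663, + strand): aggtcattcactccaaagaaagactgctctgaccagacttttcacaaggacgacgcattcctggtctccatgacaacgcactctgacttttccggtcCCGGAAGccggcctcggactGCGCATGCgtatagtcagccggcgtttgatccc
Mrpl34 (chr8:71464776-71464925, + strand): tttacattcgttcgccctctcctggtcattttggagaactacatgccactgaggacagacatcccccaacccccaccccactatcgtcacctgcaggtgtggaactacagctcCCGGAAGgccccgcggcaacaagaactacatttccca
The Mrpl45 window holds 2 NRF1 motifs, that of Mrpl22 an ETS and an NRF1 motif, and that of Mrpl34 an ETS motif. The first 3 stretches end at the partner's start and are not whole promoters. Outside the printed bases, the 150 bases before the start of Mrpl30 hold 2 NRF1 motifs, and those of Mrps11 a YY1 motif. Nuclear respiratory factor 1 (NRF1) and GABP, an ETS-family factor, are textbook regulators of nuclear genes for mitochondrial proteins.

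All 78 genes were expressed in both libraries, from 9.55 to 187 FPKM in the resistant and from 8.95 to 181 FPKM in the wild type library. Their medians were 40.6 FPKM in the resistant and 35.3 FPKM in the wild type library, and the span from the lowest to the highest gene was 19.6-fold in the resistant and 20.2-fold in the wild type library. The mRNAs for proteins of 1 particle thus differed widely in level within a library, in an order that was similar in the 2 libraries. Across the 78 genes the log2 FPKM values of the libraries correlated with r = 0.82 and Spearman rho = 0.78, a description of 2 libraries whose points share gene length and processing.

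**Figure D1:**
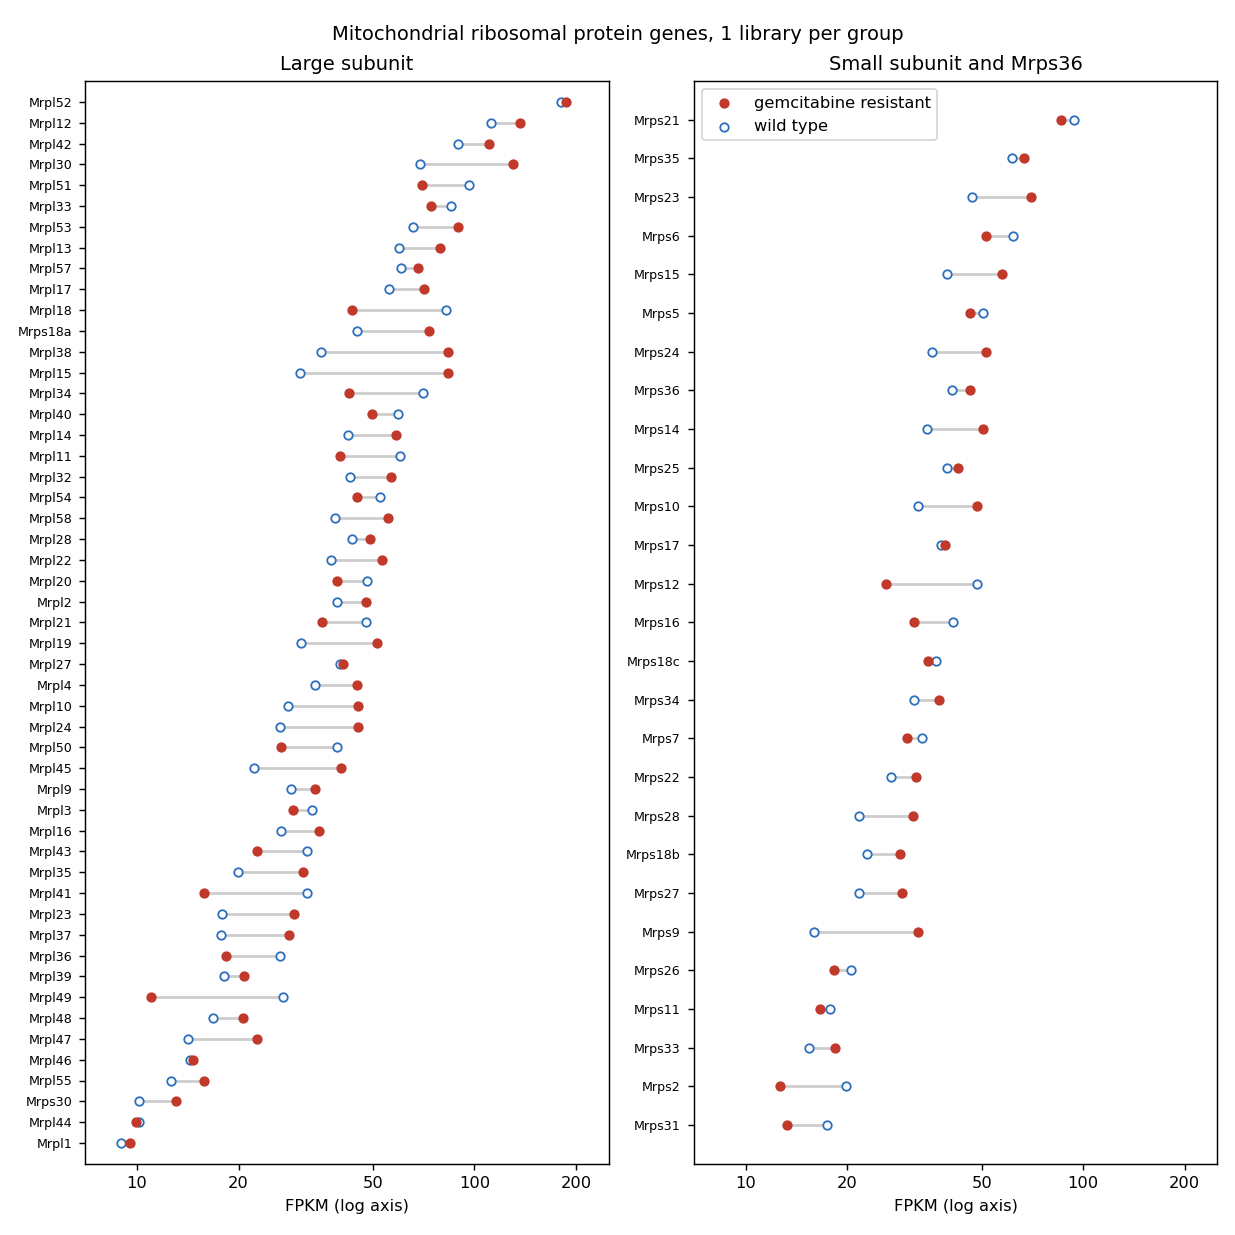
FPKM of each of the 78 genes on a log axis, with filled red points for the gemcitabine resistant and open blue points for the wild type library, ordered by mean level. Levels run from Mrpl1, at 9.55 FPKM in the resistant and 8.95 FPKM in the wild type library, to Mrpl52, at 187 FPKM in the resistant and 181 FPKM in the wild type library.

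Mrpl52, of the central protuberance of the large subunit, had the highest level, at 187 FPKM (171 to 204) in the resistant and 181 FPKM (165 to 197) in the wild type library, and these intervals overlap. Mrpl12 followed at 136.8 FPKM in the resistant and 111.6 FPKM in the wild type library. It encodes the stalk protein that recruits translation factors and is the homologue of bacterial L7/L12, which is present in several copies per ribosome. Mrpl42, specific to mitochondria, stood at 110.6 FPKM in the resistant and 89.3 FPKM in the wild type library. Mrpl30, a homologue of a bacterial large-subunit protein, stood at 130.4 FPKM in the resistant and 69.0 FPKM in the wild type library. Mrps21, of the small-subunit platform, had the highest level of the small subunit, at 85.7 FPKM in the resistant and 93.8 FPKM in the wild type library.

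At the low end, Mrpl1, of the mobile arm near the exit site for tRNA, stood at 9.55 FPKM (8.52 to 10.7) in the resistant and 8.95 FPKM (7.96 to 10.0) in the wild type library. Mrpl44, a protein with a ribonuclease III-like fold, had 9.92 FPKM in the resistant and 10.1 FPKM in the wild type library. Mrps30, which despite its symbol is a large-subunit protein, had 13.1 FPKM in the resistant and 10.1 FPKM in the wild type library. Mrpl55 stood at 15.7 FPKM and Mrpl46 at 14.7 FPKM in the resistant library, against 12.6 FPKM and 14.4 FPKM in the wild type library. These 5, picked by mean level, differed little between libraries, and the counting intervals of the ratio left out equal values for Mrps30 and Mrpl55. Mrpl49 and Mrps2, also among the lowest in the resistant library, differed more, with log2 ratios of -1.23 and -0.61.

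The summed level of all 78 genes was 3596 FPKM in the resistant and 3201 FPKM in the wild type library, a ratio of 1.12. As a share of each library's FPKM sum they made up 0.300% in the resistant and 0.321% in the wild type library, so the order of the 2 libraries depends on the scale. The median log2 ratio of the members was 0.23 as deposited and -0.021 once the resistant library was scaled to the same FPKM sum, a scaling that moves the median of all measured genes to -0.23 from 0.02. Relative to the median of all measured genes, the members' median thus stood 0.22 above it as deposited and 0.20 above it after that scaling. For the 6090 measured genes within the members' range of mean level, the median log2 ratio was 0.07 as deposited.

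A smaller share of the members than of the measured genes in their range of mean level lay beyond 2-fold. Of the 78, 75 lay within 2-fold, or 96.2%, as did 87.8% of the measured genes in their range. The standard deviation of their log2 ratios was 0.51, against 0.82 for the genes in that range. The latter includes far tails, as those ratios ran from -7.13 to 8.05, with quartiles of -0.33 and 0.46. Median levels in that range were 24.0 FPKM in the resistant and 22.8 FPKM in the wild type library, lower than those of the members. At least 2-fold higher in the resistant library were 2 members, where 7.9% of all measured genes and 6.8% of the genes in the members' range passed that line. At least 2-fold lower was 1 member, where 8.37% of all measured genes and 5.4% of those in the range passed. At equal FPKM sums these counts were 1 higher and 4 lower, and Mrpl38 was no longer beyond the upper line. That scaling lowers the ratios of all genes, and the matching shares of all measured genes were not computed. The counts at equal sums therefore have no background beside them. At 1.5-fold, 13 members were higher and 6 lower, beside a background of 18.4% higher and 19.7% lower over all measured genes, and of 18.6% and 14.8% in the members' range. A log2 ratio above 0 was found in 51 members, where 50.8% of all measured genes and 55.2% of the genes in the members' range had one. The counting interval of the ratio lay above equal FPKM for 41 members (background 35% of all genes with an interval, 41.2% in the range), below it for 21 (33.7% and 32.1%) and held equal FPKM for 16. In bulk RNA, fewer cells with an mRNA and less mRNA per cell cannot be told apart.

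**Figure D2:**
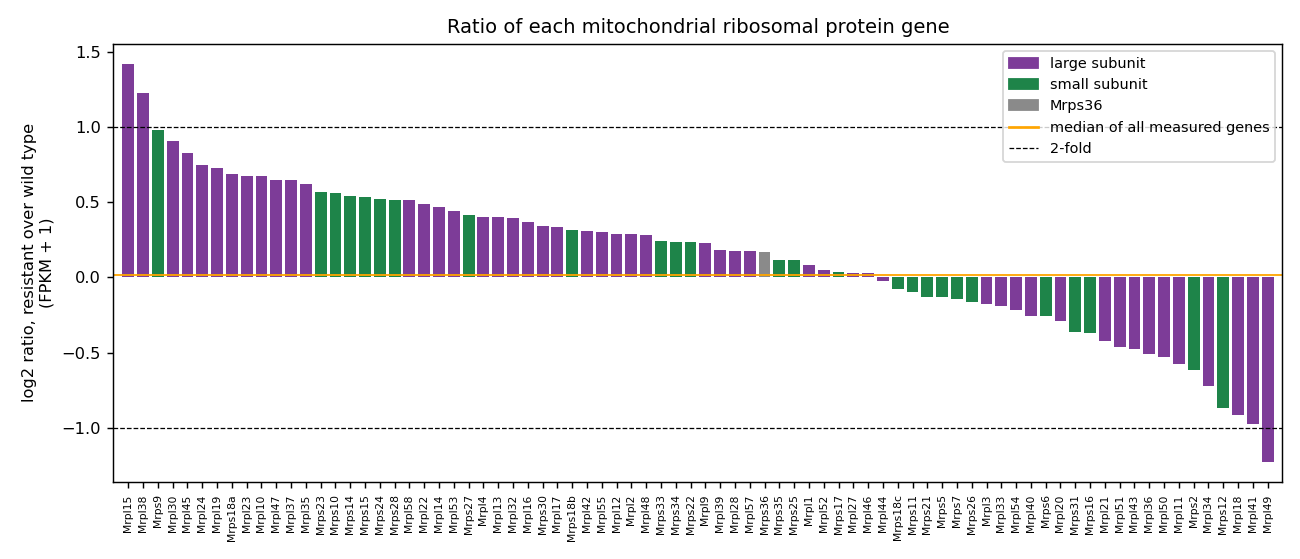
Log2 ratio of resistant over wild type for each gene, (FPKM + 1), as deposited and in falling order, with bars in purple for the large subunit, green for the small subunit and grey for Mrps36. Mrpl15 and Mrpl38 pass the upper dashed 2-fold line and Mrpl49 the lower one, and the orange line is the median of all measured genes at 0.02.

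Mrpl15 (ENSMUSG00000033845, GRCm38 chr1:4773206-4785739, - strand), a homologue of a bacterial large-subunit core protein, had the highest ratio. It stood at 83.3 FPKM (80.2 to 86.5) in the resistant and 30.5 FPKM (28.7 to 32.4) in the wild type library, a log2 ratio of 1.42. Mrpl38 (ENSMUSG00000020775, chr11:116131817-116138868, - strand), a mitochondria-specific protein of the central protuberance, stood at 83.2 FPKM (80.0 to 86.6) in the resistant and 35.0 FPKM (32.9 to 37.2) in the wild type library, a log2 ratio of 1.23. For both genes the intervals of the 2 libraries lie far apart. No other gene with 10% of their level or more was annotated in their exons.

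Mrps9, the homologue of a bacterial small-subunit head protein, stood at 32.4 FPKM (30.3 to 34.5) in the resistant and 15.9 FPKM (14.5 to 17.4) in the wild type library. Its log2 ratio was 0.98, just inside the line, while its plain FPKM ratio was 2.04. Mrpl30 followed with a log2 ratio of 0.91. Mrpl15, Mrps9 and Mrpl30 all lie on chromosome 1. Mrpl45 anchors the ribosome to the inner membrane, and it stood at 40.2 FPKM in the resistant and 22.2 FPKM in the wild type library, a log2 ratio of 0.83.

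The next members in order were also higher in the resistant library, by 1.62-fold to 1.70-fold in plain FPKM. Mrpl24 and Mrpl23, both homologues of bacterial proteins at the exit of the peptide tunnel, stood at 45.3 and 29.1 FPKM in the resistant library, against 26.6 and 17.8 FPKM in the wild type library. Mrpl19 had 51.4 FPKM in the resistant and 30.7 FPKM in the wild type library. These are large-subunit genes, as is Mrps18a, whose product sits in the large subunit in spite of its symbol. It had 73.2 FPKM in the resistant and 45.0 FPKM in the wild type library. Mrpl10, which holds the stalk proteins, had 45.3 FPKM in the resistant and 28.0 FPKM in the wild type library. Of the 10 members with the highest ratio, only Mrps9 belongs to the small subunit. Among the 10 with the lowest ratio, only Mrps12 and Mrps2 do, and the small subunit holds 26 of the 78 members.

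Mrpl49 (ENSMUSG00000007338, chr19:6053622-6057785, - strand), specific to the mitochondrial ribosome, had the lowest ratio. It stood at 11.0 FPKM (8.54 to 14.0) in the resistant and 27.1 FPKM (23.2 to 31.5) in the wild type library, a log2 ratio of -1.23. Its exons share 91 bases with Syvn1 on the opposite strand, an E3 ubiquitin ligase gene at 5.23 FPKM in the resistant and 12.7 FPKM in the wild type library, and the sources used here do not say whether the counting used strand. The share of Syvn1 in the value of Mrpl49 was not tested.

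Mrpl41, also specific to mitochondria, stood at 15.8 FPKM (12.7 to 19.4) in the resistant and 31.9 FPKM (27.5 to 36.9) in the wild type library, a log2 ratio of -0.97, while its plain FPKM was 2.02-fold higher in the wild type library. Mrps12 is the homologue of the bacterial decoding-centre protein in which streptomycin resistance mutations arise, and it stood at 26.0 FPKM (22.3 to 30.1) in the resistant and 48.4 FPKM (43.4 to 53.8) in the wild type library, a log2 ratio of -0.87. Neither pair of intervals overlaps, and neither gene shares exons with a gene of 10% of its level or more. Mrpl18, whose bacterial homologue binds the small rRNA of the large subunit, stood at 43.4 FPKM in the resistant and 82.6 FPKM in the wild type library, a log2 ratio of -0.91. Its exons share 141 bases with Tcp1, a chaperonin gene at 219 FPKM in the resistant and 225 FPKM in the wild type library.

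The other members at the low end had log2 ratios of -0.72 to -0.47. Mrpl34 stood at 42.4 FPKM in the resistant and 70.5 FPKM in the wild type library, Mrpl11 of the stalk base at 39.8 FPKM in the resistant and 60.0 FPKM in the wild type library, and Mrpl50 at 26.7 FPKM in the resistant and 39.0 FPKM in the wild type library. Mrps2 had 12.6 FPKM in the resistant and 19.8 FPKM in the wild type library. For these 4 genes the counting interval of the ratio lay below equal FPKM. Mrpl36 had 18.3 FPKM in the resistant and 26.4 FPKM in the wild type library and shares 30 exon bases with Ndufs6, at 98.3 FPKM in the resistant and 85.0 FPKM in the wild type library. Mrpl43 had 22.7 FPKM in the resistant and 31.9 FPKM in the wild type library and shares 507 exon bases with Twnk, the gene of the mitochondrial DNA helicase, at 2.98 FPKM in the resistant and 10.2 FPKM in the wild type library.

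By subunit, 51 genes encode large-subunit and 26 small-subunit proteins. Mrps36 is counted apart, because its product is now assigned to the 2-oxoglutarate dehydrogenase complex; it stood at 46.2 FPKM in the resistant and 40.9 FPKM in the wild type library. The large-subunit genes had a median log2 ratio of 0.29 as deposited and 0.03 at equal FPKM sums. In the small subunit the median was 0.11 as deposited and -0.14 at equal FPKM sums. Beyond 1.5-fold lay 12 large-subunit genes higher and 4 lower, and 1 small-subunit gene higher and 2 lower, where 18.4% of all measured genes were higher and 19.7% lower. All 3 members beyond 2-fold, 2 higher and 1 lower, were among the 51 large-subunit genes, out of 78 members. So few genes cannot separate a difference between subunits from the size of the groups. In the whole measured set, 7.9% passed the 2-fold line upward and 8.37% downward. The standard deviation of the log2 ratios was 0.55 in the large subunit, beside 0.42 in the small subunit.

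Among large-subunit genes, the 30 with bacterial homologues had a median log2 ratio of 0.32 and the 21 specific to mitochondria 0.17, both as deposited. In the small subunit the order was the opposite, with -0.09 for the 16 with bacterial homologues and 0.24 for the 10 specific to mitochondria, also as deposited. These 10 all lay within 1.5-fold, with summed levels of 356 FPKM in the resistant and 304 FPKM in the wild type library. They ranged from Mrps31, at 13.3 FPKM in the resistant and 17.4 FPKM in the wild type library, to Mrps23, at 70.1 FPKM in the resistant and 47.0 FPKM in the wild type library. Origin therefore did not order the genes the same way in both subunits.

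By place in the ribosome, the 8 genes for proteins around the peptide exit tunnel and its membrane contact had a median log2 ratio of 0.57, and 7 of them were above 0. Their summed level was 292 FPKM in the resistant and 203 FPKM in the wild type library, a ratio of 1.44. Mrpl45, Mrpl24, Mrpl23 and Mrpl47 were at least 1.5-fold higher in the resistant library, where 18.4% of all measured genes were, and 50.8% of all measured genes had a log2 ratio above 0. Mrpl22, which lines the tunnel, stood at 53.2 FPKM in the resistant and 37.7 FPKM in the wild type library, and Mrpl17 at 70.8 FPKM in the resistant and 56.0 FPKM in the wild type library. Mrpl39 had 20.7 FPKM in the resistant and 18.2 FPKM in the wild type library. Mrpl44 was the member of this group with a ratio below 0, at -0.02. All 8 lay within 2-fold, as did 83.7% of all measured genes, and the median of the 8 was 0.31 at equal FPKM sums.

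The 5 genes around the peptidyl transferase centre (Mrpl2, Mrpl3, Mrpl4, Mrpl16 and Mrpl27) had a median log2 ratio of 0.29, from -0.18 for Mrpl3 to 0.40 for Mrpl4. The 5 genes of the factor-binding stalk and its base also had 0.29, from -0.58 for Mrpl11 to 0.67 for Mrpl10, both parts of the base of the stalk. The 7 genes of the central protuberance had a median of 0.05 and the widest spread, from -0.91 for Mrpl18 to 1.23 for Mrpl38. At equal FPKM sums the medians of these 3 groups were 0.030, 0.030 and -0.21. Genes of the same region thus lay at both ends of the range.

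In the small subunit, the 7 genes of the head had a median log2 ratio of 0.24, from -0.37 for Mrps31 to 0.98 for Mrps9. The 5 genes of the platform had -0.10, and all lay within 1.5-fold, as did 59 of the 78 members. For the 4 genes at the messenger entrance and decoding site the median was -0.37. Mrps5 stood at 46.1 FPKM in the resistant and 50.5 FPKM in the wild type library, Mrps2 and Mrps12 were lower in the resistant library as given above, and Mrps24 stood at 51.7 FPKM in the resistant and 35.7 FPKM in the wild type library. Mrps24 shares 226 exon bases with Urgcp on its own strand (8.41 FPKM in the resistant and 11.6 FPKM in the wild type library). At equal FPKM sums the medians of head, platform and decoding genes were -0.0070, -0.34 and -0.62.

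The members lie on 17 chromosomes, and their ratios were higher on chromosomes whose other genes had higher ratios. Across the 78 members, the log2 ratio and the median log2 ratio of all other measured genes of the same chromosome correlated with r = 0.49 and rho = 0.44. Members of 1 chromosome share that median, so these points are not independent. Among 6012 other genes in the members' range the same correlation was r = 0.24 and rho = 0.31. With the median of the 10 measured genes on each side in place of that of the chromosome, r was 0.47 over the 78 members. Subtracting the chromosome's median brought the standard deviation of the members' log2 ratios to 0.44 from 0.51, and their median to 0.18 from 0.23. Mrpl49 was then no longer 2-fold lower, while Mrpl15 and Mrpl38 were still at least 2-fold higher.

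On chromosome 1, the 5 members had a median log2 ratio of 0.91 and the 707 other measured genes 0.36. Mrpl15, Mrps9 and Mrpl30 are there, together with Mrps14 at 50.6 FPKM in the resistant and 34.5 FPKM in the wild type library, while Mrpl44 was near 0. On chromosome 11, 10 of 11 members were above 0, with a median of 0.52 beside 0.20 for the other genes. They include Mrpl38, Mrpl45 and Mrpl10, as well as Mrps23 and Mrpl58, a release factor-like protein with peptidyl-tRNA hydrolase activity (55.5 FPKM in the resistant and 38.5 FPKM in the wild type library). The exception was Mrps7, at 30.0 FPKM in the resistant and 33.3 FPKM in the wild type library.

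At the other end, 4 of 5 members of chromosome 19 were below 0, with a median of -0.47 beside -0.42 for its 433 other measured genes. They are Mrpl49, Mrpl11, Mrpl43 and Mrpl21 (35.3 FPKM in the resistant and 47.7 FPKM in the wild type library), and Mrpl16 was above 0 at 34.7 FPKM in the resistant and 26.6 FPKM in the wild type library. On chromosome 2, all 4 members were below 0, at a median of -0.39 beside -0.21. Chromosomes 13 and 17 went the other way: their members had medians of 0.34 and 0.30, their other genes -0.24 and -0.17. On chromosomes whose median was above 0, 33 of 44 members were above 0, and on those with a median below 0, 16 of 34 members were below 0, where 51 of all 78 members were above 0.

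**Figure D3:**
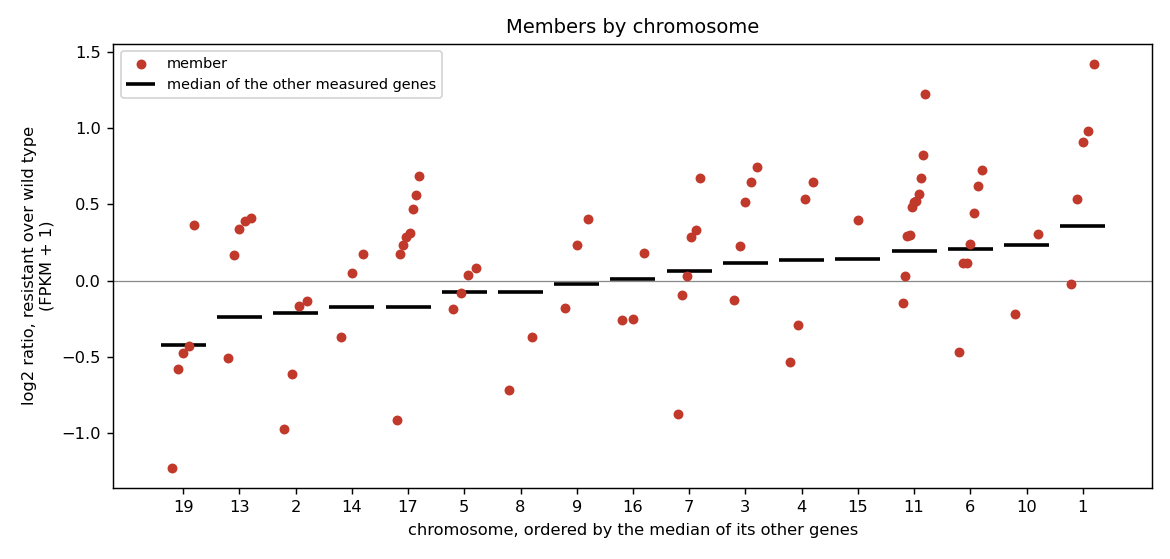
Log2 ratio of resistant over wild type of each member (red points), by chromosome, with a black bar at the median of the other measured genes of that chromosome. Chromosomes run from the lowest such median, -0.42 on chromosome 19, to the highest, 0.36 on chromosome 1, and the members of chromosomes 13 and 17 lie mostly above their bars.

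Other properties of the genes followed the ratio less closely. Across the 78 members, r between the log2 ratio and mean log2 FPKM was 0.11, between the log2 ratio and GC content of the longest coding transcript -0.02, and between the log2 ratio and its log2 length 0.13. Of the members, 69 have a promoter in the RefSeq table, running from 250 bases before to 50 bases after the start. Mrpl15 and Mrpl38 are named only. Both strands were searched for GCGCANGC (NRF1), CCGGAAG (ETS), AAGATGGC (YY1), CACGTG (E-box) and TGACGTCA (CRE), matches of different motifs may overlap, and a match is a description and not a bound site.

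An ETS motif stood in 26 promoters of members, or 37.7%, beside 22.1% of the 8628 other measured genes and 9.93% of all 27025 genes in the table. An NRF1 motif stood in 22, or 31.9%, beside 23.8% and 11.2%. A YY1 motif, whose factor is another regulator of mitochondrial genes, stood in 12, or 17.4%, beside 5.67% and 3.19%. At least 1 of these 3 motifs was found in 46 promoters, or 66.7%, beside 43.4% of the other measured genes. The other motifs were no more frequent: an E-box stood in 5, or 7.25%, beside 12.1% of the other measured genes, and a CRE in 2, or 2.90%, beside 3.80%. Windows of head-to-head genes share bases, and each gene counts once.

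Members with a motif and members without it lay at both ends of the range of ratios. The median log2 ratio as deposited was 0.30 for the 22 with and 0.05 for the 47 without an NRF1 motif, and 0.04 for the 26 with and 0.23 for the 43 without an ETS motif. For YY1 it was 0.35 in the 12 with and 0.17 in the 57 without. Of the promoters printed above, Mrpl45 with its 2 NRF1 motifs belongs to a gene that was 1.81-fold higher in the resistant library, and Mrpl34 with its ETS motif to one that was 1.66-fold higher in the wild type library. Mrpl22, with an ETS and an NRF1 motif, was 1.41-fold higher in the resistant library. Other members went the other way. Mrpl49, with the lowest ratio of all, holds an NRF1 motif, and Mrps18a, 1.63-fold higher in the resistant library, an ETS motif. The motif groups overlap, since a promoter can hold several motifs.

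The factors themselves were expressed in both libraries. Nrf1 stood at 26.6 FPKM in the resistant and 17.1 FPKM in the wild type library. Gabpa, the DNA-binding subunit of GABP, stood at 20.1 FPKM in the resistant and 30.0 FPKM in the wild type library, and Gabpb2, a partner subunit, at 4.01 FPKM in the resistant and 11.4 FPKM in the wild type library. Gabpb1, the other partner subunit, was higher in the resistant library, at 11.9 FPKM in the resistant and 7.92 FPKM in the wild type library. Yy1 had 24.0 FPKM in the resistant and 27.9 FPKM in the wild type library. Of the 9 measured regulators of mitochondrial biogenesis, Ppargc1a, a transcriptional coactivator, was at least 2-fold higher in the resistant library at 1.69 FPKM, against 0.116 FPKM in the wild type library. Gabpb2 and Pprc1, a related coactivator at 9.62 FPKM in the resistant and 21.5 FPKM in the wild type library, were at least 2-fold lower. The regulators thus included genes at both ends, and their median log2 ratio was 0.42 as deposited and 0.17 at equal FPKM sums. For the measured genes as a whole, the shares beyond 2-fold were 7.9% upward and 8.37% downward. A list of 9 genes is too short to compare with these shares.

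Of the members, 33 start within 1000 bases of a protein-coding gene on the opposite strand, in 32 head-to-head pairs, and in 29 pairs the partner was measured. The distance was taken in either direction, so pairs whose annotated 5′ ends overlap are included, such as Mrpl18 with Tcp1, Mrpl43 with Twnk and Mrpl48 with Rab6a. Genes of such pairs may share reads as well as a promoter, and the 2 were not separated. Members with such a partner had a median log2 ratio of 0.03, and 17 of 33 were above 0. The 45 without one had a median of 0.30, and 34 were above 0, all as deposited. A log2 ratio above 0 was found in 50.8% of all measured genes and in 55.2% of the genes in the members' range. Of the 10 members with the highest ratio, 2 have such a partner, Mrpl30 and Mrpl10, and of the 10 with the lowest ratio 7 have one, all but Mrpl34, Mrps2 and Mrpl11. The share of all genes with such a partner was not computed, so these counts have no background beside them.

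Within pairs, the ratio of the partner followed that of the member in some pairs and not in others. They lay on the same side of 0 in 15 of 29 pairs, with r = -0.02 over the pairs. The members had a median log2 ratio of -0.02 and the partners -0.20, and the member had the higher level in 22 pairs. Mrps18b stood at 28.7 FPKM in the resistant and 22.9 FPKM in the wild type library, while its partner Ppp1r10, which encodes a phosphatase-targeting nuclear protein, stood at 5.99 FPKM in the resistant and 34.9 FPKM in the wild type library. Mitd1, which shares the printed 65 bases with Mrpl30, stood at 4.89 FPKM in the resistant and 9.47 FPKM in the wild type library, although Mrpl30 was higher in the resistant library.

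Mrpl49 lies back to back with Fau, which encodes a cytosolic ribosomal protein and stood at 611 FPKM in the resistant and 701 FPKM in the wild type library, a log2 ratio of -0.20 beside -1.23 for Mrpl49. The partner of Mrps12 is Sars2, the mitochondrial seryl-tRNA synthetase, at 3.20 FPKM in the resistant and 4.33 FPKM in the wild type library. Mrpl46 and Mrps11, of the large and the small subunit, share the printed 41 bases between their RefSeq starts, whereas in GENCODE their exons overlap by 173 bases, so their values are uncertain too. Mrps11 stood at 16.5 FPKM in the resistant and 17.7 FPKM in the wild type library, so both genes of this pair were close in level and their counting intervals of the ratio held equal FPKM. Mrpl47 and Ndufb5, a subunit of respiratory complex I, had equal log2 ratios of 0.65, and their exons share 616 bases.

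**Figure D4:**
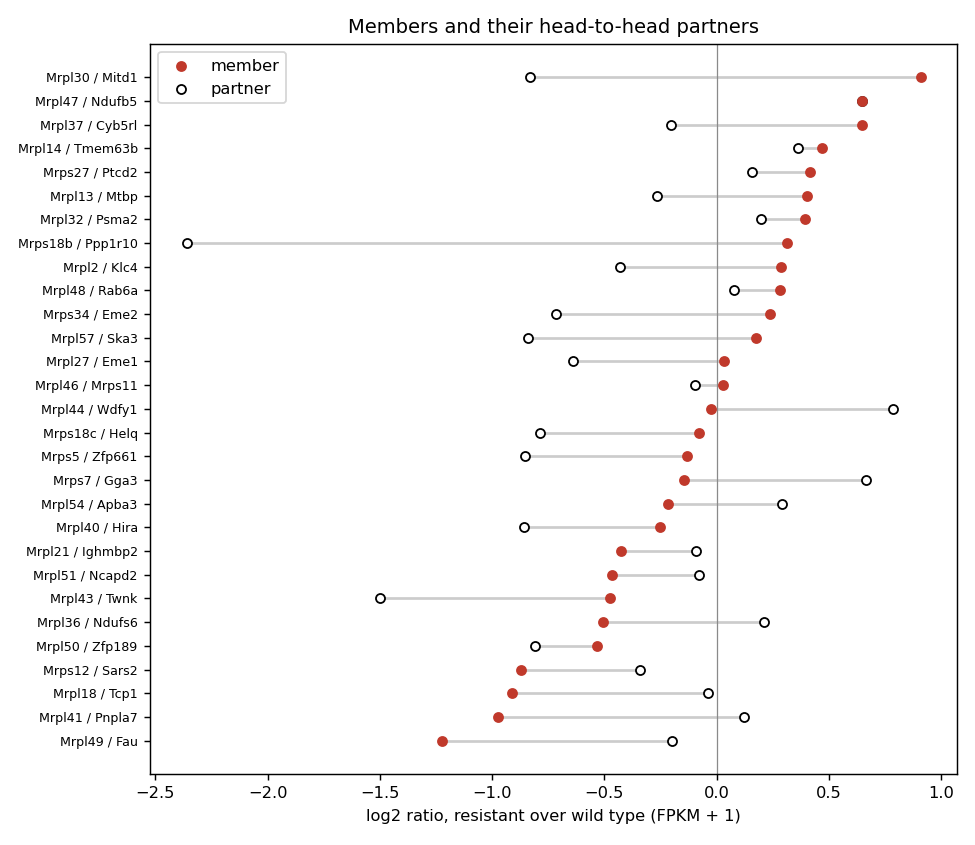
Log2 ratio of resistant over wild type for the members (red) and their head-to-head partners (open) in the 29 pairs with a measured partner, ordered by the member's ratio. The grey lines are longest for Mrps18b with Ppp1r10 and for Mrpl30 with Mitd1, and member and partner lie on the same side of 0 in 15 pairs.

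Some values rest on reads that could belong to another gene. The exons of 14 members overlap those of a gene with at least 10% of their level, and 3 members have a copy elsewhere of at least 90% identity over 300 bases with at least 10% of their level. Together these are 16 members, and leaving them out gave a median log2 ratio of 0.23, as before, over 62. Besides those already described, Mrpl13 stood at 79.3 FPKM in the resistant and 59.9 FPKM in the wild type library and overlaps Mtbp, and Mrpl14 stood at 58.7 FPKM in the resistant and 42.1 FPKM in the wild type library and overlaps Tmem63b. Mrpl47 had 22.7 FPKM in the resistant and 14.1 FPKM in the wild type library and overlaps Actl6a as well as Ndufb5. All 3 are large-subunit genes with bacterial homologues.

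Mrps25 stood at 42.7 FPKM in the resistant and 39.4 FPKM in the wild type library and shares 4590 exon bases with Nr2c2. Mrps34 stood at 37.3 FPKM in the resistant and 31.5 FPKM in the wild type library and shares 763 bases with Nme3 on its own strand. Mrps7 overlaps both Gga3 and Mif4gd. The copies concern Mrpl48, at 20.6 FPKM in the resistant and 16.7 FPKM in the wild type library, which also overlaps Rab6a, as well as Mrps18b and Mrps33. Mrps33 had 18.3 FPKM in the resistant and 15.4 FPKM in the wild type library, and its copy Gm5776 had 8.82 FPKM in the resistant and 7.07 FPKM in the wild type library. These 16 values are uncertain to the extent that reads were split between such genes.

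The mitochondrial ribosome also holds proteins with other symbols. The 5 looked at had a median log2 ratio of 0.19 as deposited and -0.050 at equal FPKM sums. Dap3, a GTP-binding small-subunit protein, was the highest of these at 67.4 FPKM in the resistant and 43.2 FPKM in the wild type library, and Ptcd3 the lowest at 31.3 FPKM in the resistant and 35.3 FPKM in the wild type library. The rRNA genes of mitochondrial DNA stood at 25712 FPKM (mt-Rnr1, small subunit) and 22619 FPKM (mt-Rnr2, large subunit) in the resistant library, against 16255 and 16555 FPKM in the wild type library. Values of mitochondrial genes were uneven within a library, with mt-Co1 at 8795 FPKM and mt-Co3 at 4.08 FPKM in the resistant and 4963 and 3.96 FPKM in the wild type library, so their levels are given here with no further use.

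Of 28 genes for assembly of the mitochondrial ribosome, 1 was at least 2-fold higher and 2 at least 2-fold lower. The background shares at that line were 7.9% upward and 8.37% downward for the measured genes, and neither count exceeds its share. The median log2 ratio of the list was 0.03 as deposited and -0.18 at equal FPKM sums. Rpusd3 stood at 10.6 FPKM in the resistant and 3.24 FPKM in the wild type library. Mettl17, needed for the small subunit, stood at 1.42 FPKM in the resistant and 6.06 FPKM in the wild type library, and Mrm2, an rRNA methyltransferase, at 1.34 FPKM in the resistant and 4.20 FPKM in the wild type library. The spread of this list was wider than that of the members, with a standard deviation of 0.70, and its median level was lower, at 6.86 FPKM in the resistant and 5.50 FPKM in the wild type library.

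Of 21 measured translation factors, Pdf was at least 2-fold lower, at 2.28 FPKM in the resistant and 10.4 FPKM in the wild type library. It encodes the deformylase that takes the formyl group off the first residue of new mitochondrial proteins. None of the 21 was 2-fold higher on the log2 scale used. For this list and the next ones, the background at that line is 7.9% upward and 8.37% downward. In lists of this size, 1 gene past the line does not stand out from these shares. Qrsl1, which takes part in making glutaminyl-tRNA, stood at 5.42 FPKM in the resistant and 2.47 FPKM in the wild type library, a log2 ratio of 0.89 and 2.19-fold in plain FPKM. The median log2 ratio of the 21 factors was 0.29. Among the 17 mitochondrial aminoacyl-tRNA synthetases it was 0.34, and Nars2 was at least 2-fold higher, at 5.89 FPKM in the resistant and 2.10 FPKM in the wild type library. For the 11 measured genes of mitochondrial DNA transcription and replication the median was -0.29, and Twnk, whose exons overlap Mrpl43, was at least 2-fold lower. The 13 mitochondrial chaperones and proteases had 0.39, from Atf5, a transcription factor of the mitochondrial stress response, at 15.0 FPKM in the resistant and 29.0 FPKM in the wild type library, to the protease Lonp1, at 77.0 FPKM in the resistant and 40.1 FPKM in the wild type library. These medians are as deposited; at equal FPKM sums they were 0.060, 0.15, -0.52 and 0.13 in the same order of lists.

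The 84 measured cytosolic ribosomal protein genes had a median log2 ratio of 0.28, and 74 were above 0. The 80 measured nuclear genes of the respiratory chain and ATP synthase had 0.30, and 67 were above 0. Of all measured genes, 50.8% were above 0. At equal FPKM sums the medians were 0.021 and 0.038, and both lists were narrower than the members, with standard deviations of 0.37 and 0.34 beside 0.51. Their summed levels were each 1.25 times as high in the resistant library, beside 1.12 times for the members. No gene of either list was at least 1.5-fold lower, where 6 of the 78 members and 19.7% of all measured genes were.

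**Figure D5:**
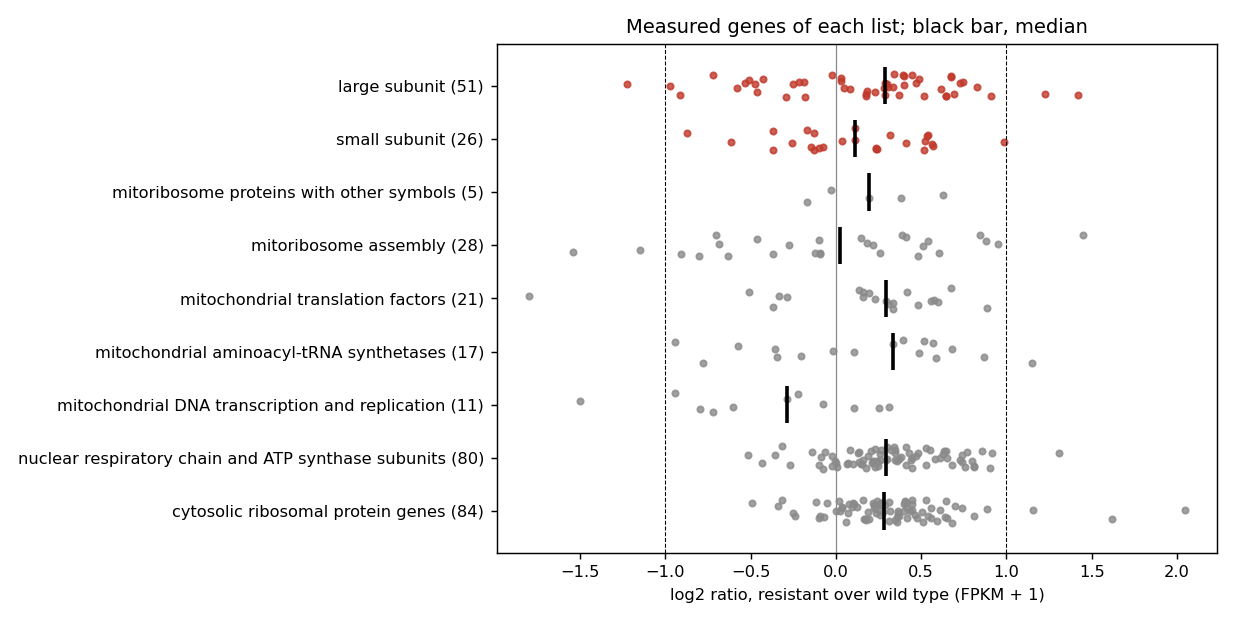
Log2 ratio of resistant over wild type, as deposited, for the measured genes of each list, with 1 point per gene, a black bar at the median and dashed lines at 2-fold. Red points are the members, with medians of 0.29 in the large and 0.11 in the small subunit, and grey points are the 7 other lists drawn, with medians from -0.29 for mitochondrial DNA transcription and replication to 0.34 for the synthetases.

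In the authors' deposited table, none of the 78 members was called different, as against 0.404% of the 13850 genes that the authors tested. The lowest p-values of members in the authors' deposited table were 0.0533 for Mrpl38 and 0.06265 for Mrpl15, and the q-value there was 0.998 for all members. That test also rests on a single library per side.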

How the data were processed

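RNA of 1 gemcitabine resistant and 1 wild type KPC2 library was sequenced. HISAT2, StringTie and the build GRCm38 are named in the submitters' processing notes without role or version. The deposited table of 55468 rows names no unit. The authors' values were taken for FPKM: they are fractional, and low ones, multiplied by transcript length less 160 bases, fall on whole fragments (93.8% of low values in the resistant and 93.0% in the wild type library within 0.1). Also deposited, per the file headers, are the authors' log2 fold changes, test statistics (a score), p-values and q-values, quoted only as theirs.

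Values of rows with the same symbol were added up, and 13 rows marked by the authors as failed or too deep, none of a member, were left out. Fragments per member were approximated on the shortest coding transcript, with exact Poisson intervals for levels and exact conditional binomial intervals for ratios (95%). Loci and overlaps come from GENCODE M21, promoters from RefSeq (GRCm38.p6) and copies from BLAST 2.17.0. No test between the libraries was possible. The members and lists were chosen with earlier results of these data known. The named members are the 10 at either end of the ratios, the 5 at either end of the levels, those sharing a locus with a gene of 10% of their level or more, and of other lists the genes at 2-fold or more or the extremes; other members are named for their place in a group or on a chromosome. A single list symbol, Mtrfr, was not matched. The other settings were pseudocounts of 0.1 and 5, other level filters, rescalings, 1 row per symbol, a 1.5-fold line, no overlapping members and, added after seeing the data, equal FPKM sums and subtracted chromosome medians. The steps were tested on simulated fragments, which hold counting error and no variation between cultures. Software was Python 3.11.15 with scipy 1.17.1, pandas 2.3.3, numpy 2.4.6 and, for figures, matplotlib 3.10.9.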

Additional observations from a re-analysis of the deposited data

Results flagged for a closer look

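Rows of processed pseudogenes named after members lie outside the 78 genes, and 3 of them are listed higher in the resistant library. Mrps36-ps2 stood at 0.864 FPKM and Mrps36-ps1 at 0.294 FPKM in the resistant library, and both are listed at 0 in the wild type library. Mrpl23-ps1 stood at 0.721 FPKM in the resistant and 0.401 FPKM in the wild type library. All 3 are below 1 FPKM, and whether their reads came from the parent genes was not tested. Of the other such rows, Mrpl48-ps was lower in the resistant library, at 2.09 FPKM in the resistant and 2.29 FPKM in the wild type library. Mrps36-ps3 is listed at 0 in both libraries.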

How the results depend on the processing

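No paired analysis was possible because each group has 1 library. Of the 228 values of 38 named members under other settings, 7, of 5 members, changed sign. At equal upper quartiles these were Mrpl52 at a log2 ratio of -0.0045 and Mrpl46 at -0.021. At equal FPKM sums, a scaling added after seeing the data, they were Mrpl52 at -0.21, Mrpl1 at -0.15, Mrpl46 at -0.21, Mrps25 at -0.14 and Mrps34 at -0.017. That scaling, which moves the median of all measured genes to -0.23, gave a members' median log2 ratio of -0.021. The medians were 0.030 for large-subunit and -0.14 for small-subunit genes, and the log2 ratio of summed FPKM was -0.094. At that scaling 1 member was at least 2-fold higher and 4 lower, and the matching shares of all measured genes were not computed. The main log2 ratio of summed FPKM, 0.17, was 0.15 at a median ratio of 0, 0.11 at equal upper quartiles and 0.20 without members that overlap other genes or have copies. At 1.5-fold, 13 members were higher and 6 lower. Members at least 2-fold lower numbered 2 with a pseudocount of 0.1 or at equal upper quartiles, and 0 without overlapping members or with chromosome medians subtracted. Under all settings tried other than equal FPKM sums, the members' median log2 ratio lay between 0.18 and 0.24. The summed ratio was not recomputed under other pseudocounts. With 1 library per group, variation between cultures is unknown, and fragment numbers are approximate.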
